A study of Mus musculus with 13 samples.

Results

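The aminoacyl-tRNA synthetase genes were taken by symbol from the RNA-seq tables of single mouse oocytes. A gene was a member if its symbol was 1 amino acid letter followed by ars, or Eprs, Farsa or Farsb, with or without a closing 2. The rule gave 37 genes of the 18939 in the count tables, and all 37 were annotated as protein coding. Of these, 20 carried no 2 and are called cytosolic here, and 17 ended in 2 and are called mitochondrial. The rule reads symbols alone and uses no measured value.

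The libraries came from 13 oocytes of C57BL/6 females aged 3 to 4 weeks and primed with PMSG. Every oocyte, controls included, had been injected with FBL-GFP mRNA and held at the germinal vesicle (GV) stage with cilostamide for 6 h. Oocytes were then sorted by the FBL-GFP pattern of the nucleolus into SN (surrounded nucleolus) and NSN (non-surrounded nucleolus) oocytes. The groups were 3 SN GV, 3 NSN GV, 4 SN-MII and 3 NSN-MII oocytes. MII (metaphase II) oocytes had been released from cilostamide and matured in culture, and their type is the one seen at the GV stage. No label says which females the oocytes came from, so p-values measure the spread between these oocytes. Stage cannot be told apart from the extra culture that MII oocytes had, nor from which oocytes completed maturation. The study reports lower rates of GV breakdown and polar body extrusion for NSN than for SN oocytes.

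Aminoacyl-tRNA synthetases join each amino acid to its tRNA and so supply the ribosome with charged tRNA. Mammalian cells hold a cytosolic set and, inside mitochondria, a second set that is encoded in the nucleus. Gars and Kars serve both compartments from 1 gene each, and mitochondrial glutaminyl-tRNA is made by an amidotransferase rather than by a synthetase of its own, which is why the mitochondrial set is the smaller. Several cytosolic synthetases sit together in the multi-synthetase complex. A fully grown oocyte has largely stopped transcription and lives through meiosis on stored mRNA, of which a large part is degraded, and another part kept or translated, between the GV and MII stages.

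Total counts per library lay between 7140416 and 8846287. All 12 oocyte markers had counts in each group, with summed levels of 17800 to 26400 CPM (counts as a share of the library's scaled total). Of 14 cumulus and granulosa cell markers, Foxl2, Ptx3 and Fst were at 0 in all libraries. Cyp19a1, Kitl and Nr5a2 had counts in every library, with Cyp19a1 at 37.8 to 67.3 CPM in GV and 77.1 to 158 CPM in MII oocytes. Of the 5 markers tested, Cyp19a1 (1.04 log2) and Kitl (1.26 log2) were called higher in MII oocytes and Cyp11a1 (-3.34 log2) lower. The summed level of these 14 was 61.4 to 92.5 CPM in GV and 99.1 to 187 CPM in MII oocytes, and the part of these cells in the results was not tested. NSN-MII oocyte 3 had the fewest genes with a count, 11593 against 11830 to 12522 in the other MII libraries, with SN-MII oocyte 4 next at 11830. The NSN over SN differences of the members named at MII are given with and without NSN-MII oocyte 3. In single oocytes, less RNA per cell cannot be told apart from a smaller share of 1 mRNA, because all values are relative to the library.

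The promoters of 27 of the 37 genes were held by RefSeq (GRCm38.p6), as windows from 250 bases before to 50 after the transcription start. TGATGNAA is the core of the C/EBP-ATF response element, which ATF4 binds in genes of the amino acid response. On either strand it was present in the windows of 5 of the 13 cytosolic genes and of 0 of the 14 mitochondrial ones, against 4.51% of all 27025 genes with a window. The 5 genes were Aars, Gars, Iars, Tars and Yars. They are shown because ATF4 is a known regulator of many cytosolic synthetase genes, with the match in capitals and 30 bases on each side.
Aars, 112 bases upstream of the start, chr8:111033700-111033767 (+): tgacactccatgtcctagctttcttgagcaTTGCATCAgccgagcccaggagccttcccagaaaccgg
Gars, 30 bases upstream, chr6:55037941-55038008 (+): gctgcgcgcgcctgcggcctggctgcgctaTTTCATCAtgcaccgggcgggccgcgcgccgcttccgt
Iars, 7 bases downstream, chr13:49682107-49682174 (+): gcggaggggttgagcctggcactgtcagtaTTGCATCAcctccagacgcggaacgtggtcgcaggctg
Tars, 15 bases upstream, chr15:11399636-11399703 (-): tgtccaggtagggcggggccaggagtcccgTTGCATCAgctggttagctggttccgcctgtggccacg
Yars, 3 bases downstream, chr4:129189876-129189943 (+): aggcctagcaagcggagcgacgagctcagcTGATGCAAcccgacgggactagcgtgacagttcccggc
The matches of Aars, Gars, Iars and Tars read the element on the reverse strand. Aars held a further match 9 bases downstream of its start.

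GCGCATGCG is the core of the site bound by NRF1, a factor of many nuclear genes for mitochondrial proteins. On either strand this core was found in the mitochondrial members Vars2 and Wars2 alone, against 1.95% of all genes with a window. Vars2 held 2 matches, and the one 47 bases upstream of the start is shown with that of Wars2.
Vars2, chr17:35667601-35667669 (-): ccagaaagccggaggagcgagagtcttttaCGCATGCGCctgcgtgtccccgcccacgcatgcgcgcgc
Wars2, 64 bases upstream, chr3:99140996-99141064 (+): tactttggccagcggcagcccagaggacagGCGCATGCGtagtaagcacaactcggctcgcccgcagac
CACGTG, the E-box, was present in Aars, Farsb, Iars, Tars and Ears2, against 8.09% of all genes with a window. TGACGTCA, the cAMP response element, was in 0 of the 27, against 2.03%. No match of 1 motif overlapped a match of another. A match describes letters in a window and is not a measured binding site.

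Levels between genes were compared per length, as FPKM. In GV oocytes the cytosolic genes had a median level of 41.2 FPKM and the mitochondrial genes 4.14 FPKM. In MII oocytes the medians were 17.5 and 0.67 FPKM. At the GV stage 18 of 20 cytosolic and 5 of 17 mitochondrial genes had a median of at least 10 FPKM, and at MII 15 and 2 had. Summed over the genes, the cytosolic set lay between 1154 and 1382 FPKM in the 6 GV libraries and between 699 and 793 FPKM in the 7 MII libraries, which do not overlap. In FPKM the mitochondrial set overlapped between the stages, at 224 to 278 FPKM in GV and 173 to 246 FPKM in MII oocytes. Fars2 alone made up 104 to 148 FPKM at GV and 131 to 190 FPKM at MII. In counts, not scaled by length, the mitochondrial sums did not overlap, at 2802 to 3235 in GV and 1427 to 2254 in MII libraries. All 37 genes took 0.335 to 0.369% of the counts of a GV library and 0.203 to 0.214% of those of an MII library.

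**Figure D1:**
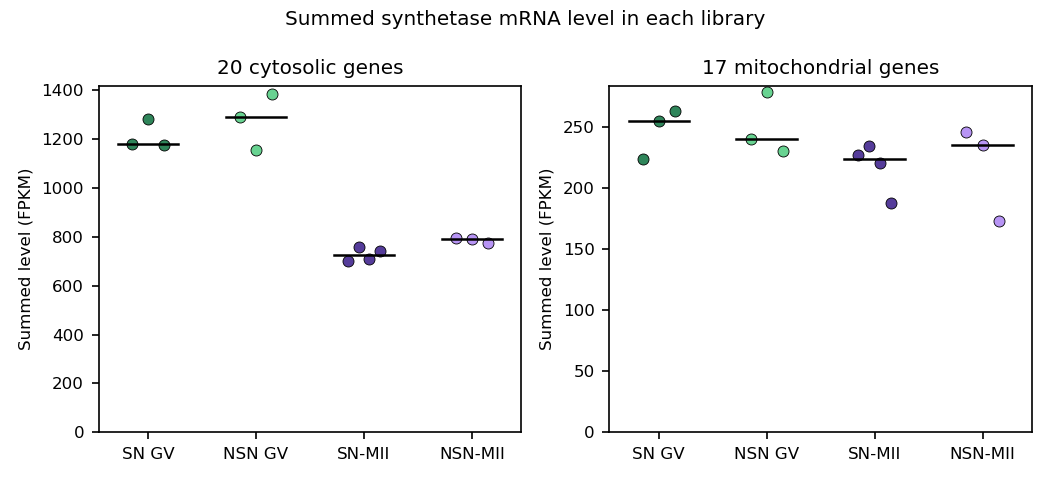
Summed FPKM of the 20 cytosolic (left) and 17 mitochondrial (right) synthetase genes. Each point is 1 oocyte library, the bars are group medians and the axes start at 0. The cytosolic sums of the GV libraries (1154 to 1382 FPKM) all lie above those of the MII libraries (699 to 793 FPKM). The mitochondrial sums overlap in FPKM, though not in counts.

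The most abundant member at the GV stage was Qars, the glutaminyl-tRNA synthetase, at a median of 259 FPKM. It was followed by Farsb, the beta subunit of the phenylalanyl enzyme, at 184 FPKM, with ranges that did not overlap (233 to 310 against 174 to 195 FPKM). Rars (arginine), Fars2 (mitochondrial phenylalanine) and Iars (isoleucine) came next at 130, 124 and 121 FPKM, and the ranges of these 3 overlapped. In MII oocytes Farsb led at 270 FPKM and Fars2 followed at 174 FPKM, while Qars stood at 27.3 FPKM with a range of 7.19 to 62.3. Eprs, which charges both glutamate and proline, and Iars came next at MII, at 79.9 and 79.2 FPKM with overlapping ranges.

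The high level of Fars2 rests in part on the length used. Its libraries held a median of 4.74 counts for each FPKM unit, against 19.3 over all genes, and 102 for Mars2, so that few counts give Fars2 a high FPKM and many counts give Mars2 a low one. Hars2, Yars2 (both mitochondrial) and the cytosolic Yars were near the floor at both stages, with GV medians of 0.075, 0.79 and 0.355 FPKM.

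**Figure D2:**
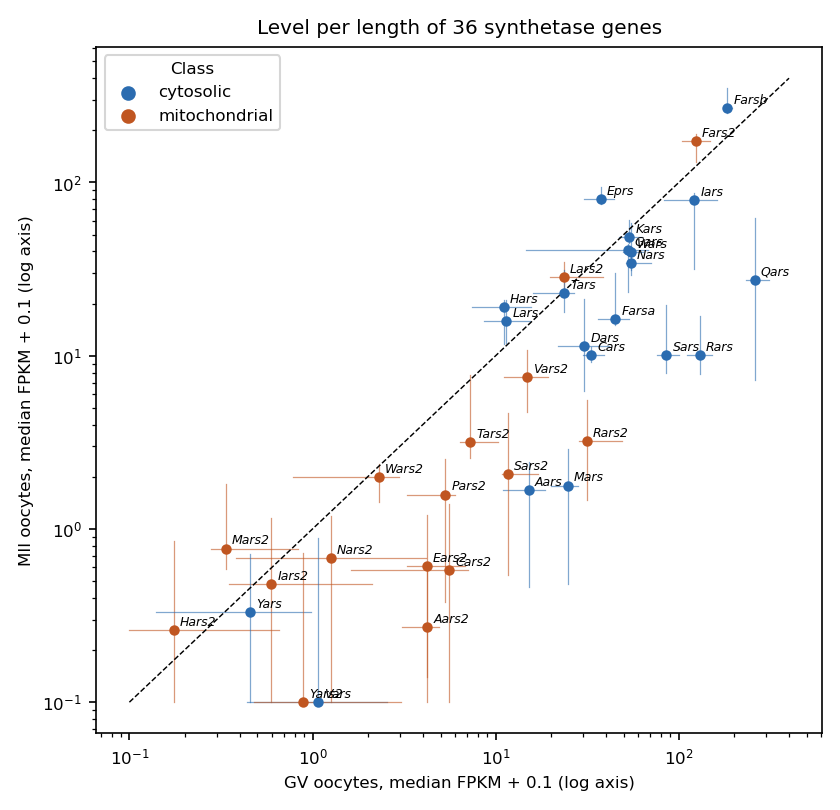
Median FPKM + 0.1 of 36 synthetase genes in the 6 GV (x) and 7 MII (y) libraries, both on log axes. Thin lines span the lowest to the highest library, and the dashed line marks equal levels. Qars, Rars, Sars, Mars, Aars and Rars2 lie far below the line, and Eprs, Farsb and Mars2 above it.

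The comparison of MII with GV oocytes asks how the measured levels of the synthetase mRNAs differed after maturation. The libraries were primed on poly(A) tails, so a change of tail cannot be told apart from a change of mRNA amount. Genes said to rise or fall did so in levels measured in this way. Of the 35 members tested, 27 passed edgeR's quasi-likelihood test at an adjusted p under 0.05, 6 of them higher and 21 lower in MII oocytes. Changes of stage were common throughout the transcriptome: 68.6% of 11375 genes were called, 31.7% higher and 36.9% lower. Among the members tested, 17.1% were higher and 60% lower. For 21 of the 35, all MII libraries lay on 1 side of all GV libraries, against 47.4% of all genes tested. The median change was -1 log2 for the 20 cytosolic and -1.66 log2 for the 15 mitochondrial genes tested, against -0.10 over all genes. Hars2 and Yars2 were too low to be tested.

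**Figure D3:**
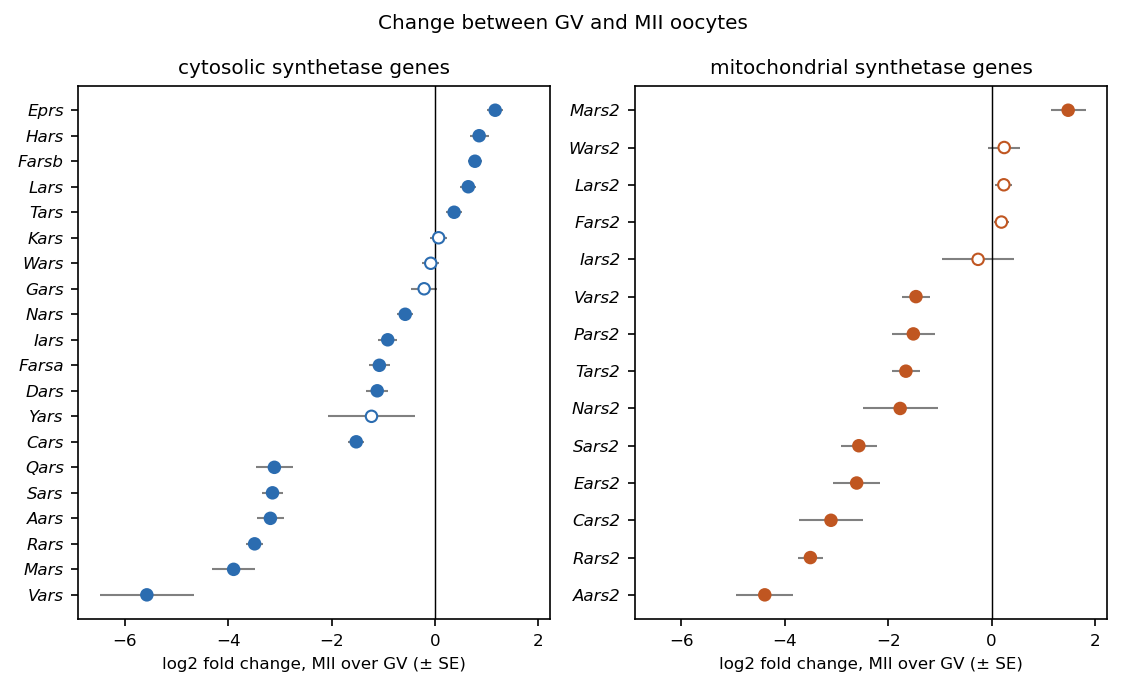
Log2 fold change between MII and GV oocytes, with its standard error, for 20 cytosolic and 14 mitochondrial synthetase genes. Filled points had an adjusted p under 0.05. Of the filled points, 5 cytosolic genes and Mars2 lie right of 0, and 11 cytosolic and 9 mitochondrial genes lie left of it.

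Among cytosolic genes, 11 fell. Those that fell most charge valine, methionine, arginine, alanine, serine and glutamine. Rars, the arginyl-tRNA synthetase of the multi-synthetase complex, had 290, 324 and 252 CPM in SN GV, 230, 243 and 300 CPM in NSN GV, 23.1, 27.1, 18.8 and 19.5 CPM in SN-MII and 34.6, 24.9 and 20.4 CPM in NSN-MII oocytes. Every MII library lay below every GV library, 11.2-fold lower in the fit (log2 change -3.49 ± 0.17 SE, edgeR adjusted p = 6.53e-11). Qars had 440, 435 and 421 CPM in SN GV, 405, 494 and 498 CPM in NSN GV, 47.1, 48, 30.6 and 23 CPM in SN-MII and 84.9, 121 and 12.3 CPM in NSN-MII oocytes. Its fall was 8.61-fold (log2 -3.11 ± 0.35, edgeR adjusted p = 8.32e-07), and the 3 NSN-MII oocytes differed among themselves far more than the GV oocytes, with NSN-MII oocyte 3 the lowest of all.

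Mars, the cytosolic methionyl-tRNA synthetase, which also charges the initiator tRNA, had 39.5 to 44 CPM in SN GV and 40.8 to 56.6 CPM in NSN GV oocytes. In SN-MII oocytes it had 4.38, 3.08, 1.18 and 0.136 CPM and in NSN-MII oocytes 5.95, 3.71 and 2.03 CPM. This was a fall of 14.9-fold (log2 -3.89 ± 0.41, edgeR adjusted p = 3.63e-07) with no overlap. Aars, for alanine, ran from 66.2 to 90.1 CPM over the 6 GV libraries and from 2.7 to 13 CPM over the 7 MII libraries, 9.08-fold lower (adjusted p = 1.4e-08 by edgeR). Sars, for serine, fell 8.82-fold, from 110 to 151 CPM down to 9.95 to 22.4 CPM (adjusted p = 5.72e-10 by edgeR).

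Vars, for valine, was scarce to begin with. It had 2.3, 3.43 and 0.958 CPM in SN GV and 4.73, 5.62 and 4.55 CPM in NSN GV oocytes. In SN-MII oocytes it had 0, 0.128, 0.92 and 0.136 CPM, and all 3 NSN-MII libraries held 0 counts. Set against a floor of 3 counts per library, NSN-MII oocytes were at least 12.1-fold lower than NSN GV oocytes. The remaining cytosolic genes that fell did so by less: Cars (cysteine) 2.87-fold, Dars (aspartate) 2.17-fold, Farsa (the alpha subunit of the phenylalanyl enzyme) 2.11-fold, Iars 1.88-fold and Nars (asparagine) 1.49-fold. The stages of Farsa overlapped, with NSN-MII oocyte 3 at 66.7 CPM against 61.9 to 99.3 CPM at GV.

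The 5 cytosolic genes that rose charge glutamate and proline, phenylalanine, histidine, leucine and threonine. Eprs, the largest of the synthetases, had 185, 201 and 139 CPM in SN GV, 147, 167 and 211 CPM in NSN GV, 341, 363, 389 and 426 CPM in SN-MII and 338, 362 and 516 CPM in NSN-MII oocytes. All MII oocytes lay above all GV oocytes, 2.24-fold in the fit (log2 1.16 ± 0.15, edgeR adjusted p = 4.26e-06). Farsb had 296 to 388 CPM at GV and 518 to 840 CPM at MII, where the highest value was that of NSN-MII oocyte 3 and the others reached 619 CPM. It rose 1.71-fold (adjusted p = 0.000147 by edgeR) without overlap.

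Hars, the histidyl-tRNA synthetase, had 14.9, 19.3 and 17.2 CPM in SN GV, 26.5, 25.4 and 25.6 CPM in NSN GV, 36.6, 44.2, 42.2 and 47 CPM in SN-MII and 22.9, 38 and 41.4 CPM in NSN-MII oocytes. It rose 1.81-fold (adjusted p = 0.000504 by edgeR), and its stages overlapped because NSN-MII oocyte 1 lay below the 3 NSN GV oocytes. Lars, for leucine, rose 1.56-fold from 35.8 to 53.6 CPM up to 58.8 to 83.7 CPM (adjusted p = 0.0017 by edgeR). Tars, for threonine, had 54.5 to 76 CPM at GV and 69.9 to 106 CPM at MII, a change of 0.37 log2 (adjusted p = 0.0366 by edgeR). Scaled by total count, the change of Tars was 0.08 log2 (adjusted p = 0.673) and that of Lars 0.35 log2 (adjusted p = 0.0901).

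Gars and Kars, the genes that serve both the cytosol and mitochondria, were not called. Gars (glycine) had 119, 141 and 130 CPM in SN GV, 101, 36.7 and 167 CPM in NSN GV, 60.8, 106, 115 and 81.1 CPM in SN-MII and 97.5, 97.7 and 131 CPM in NSN-MII oocytes, with NSN GV oocyte 2 far below the rest. Its change was -0.21 log2, with a 95% interval of -0.76 to 0.34. Kars (lysine) had 97.2 to 136 CPM at GV and 95.5 to 159 CPM at MII, a change of 0.07 log2 with an interval of -0.27 to 0.41. Wars (tryptophan) had a change of -0.08 log2 (-0.42 to 0.26), and Yars (tyrosine), near the floor, one of -1.23 log2 (-3.01 to 0.56).

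**Figure D4:**
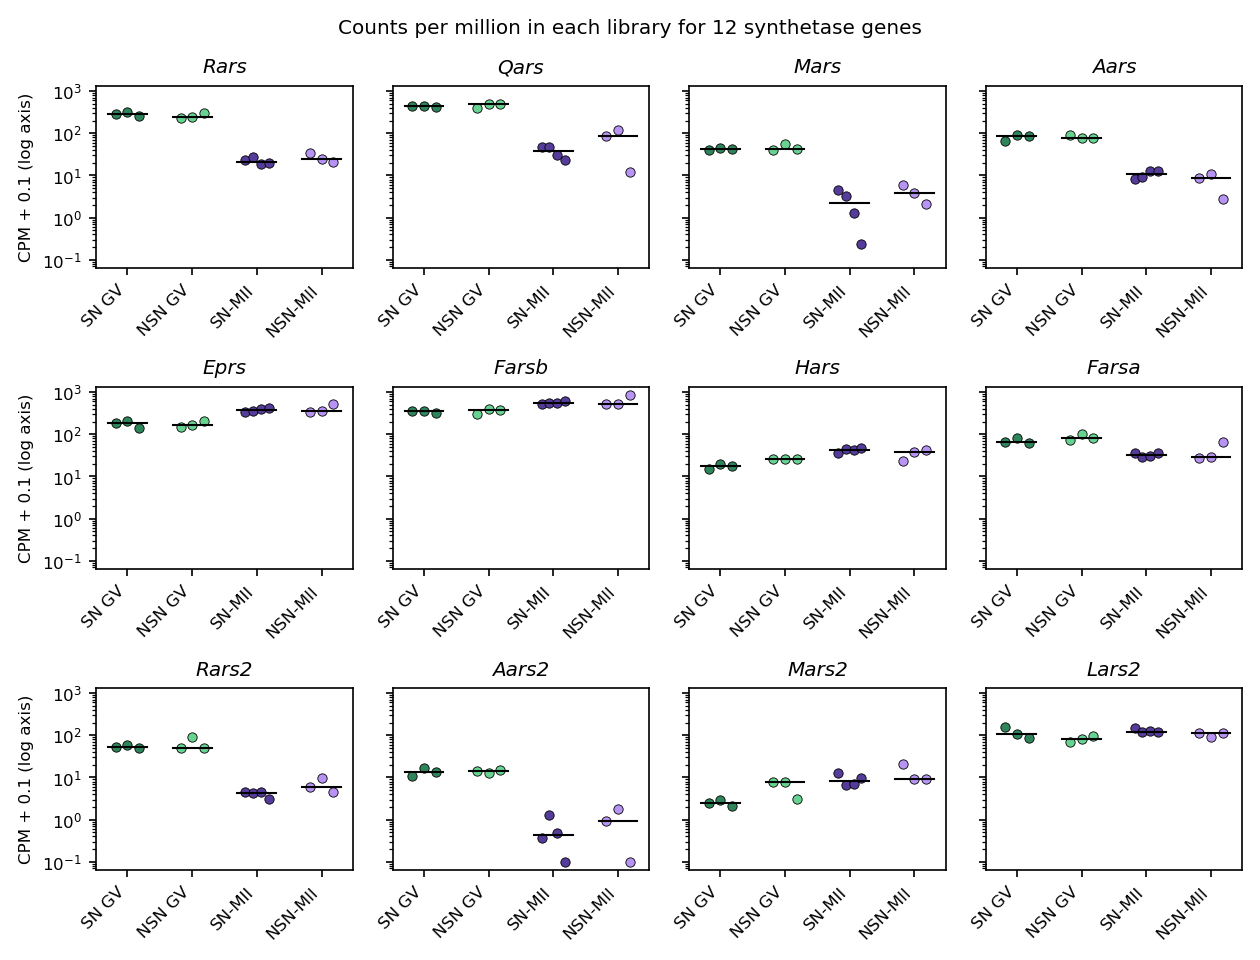
CPM + 0.1 of 12 synthetase genes in each library, on 1 shared log axis. Points are single oocytes and bars are group medians. The ranges of GV and MII oocytes overlap for Farsa, Hars, Mars2 and Lars2. Rars, Qars, Mars, Aars, Farsa, Rars2 and Aars2 are lower in MII oocytes, Eprs, Farsb, Hars and Mars2 are higher, and Lars2 was not called, with ranges of 67.7 to 155 CPM at GV and 89.8 to 150 CPM at MII.

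Among mitochondrial genes, 10 of the 15 tested fell and 1 rose. Rars2, the mitochondrial arginyl-tRNA synthetase, had 52.4, 58.6 and 49.6 CPM in SN GV, 50.9, 90 and 49.6 CPM in NSN GV, 4.38, 4.11, 4.34 and 3 CPM in SN-MII and 5.71, 9.65 and 4.39 CPM in NSN-MII oocytes. The groups lay far apart, 11.3-fold in the fit (log2 -3.50 ± 0.24, edgeR adjusted p = 1.62e-09), close to the 11.2-fold of its cytosolic counterpart Rars. Aars2, for alanine, fell 20.9-fold, from 10.7 to 16.3 CPM down to 0 to 1.73 CPM (adjusted p = 2.7e-06 by edgeR). At such low counts the size of the fold is loosely set: the interval ran from -5.56 to -3.21 log2.

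Cars2 (cysteine) fell 8.61-fold, from 2.75 to 11.3 CPM at GV down to 0 to 3.04 CPM at MII (log2 -3.11, 95% interval -4.41 to -1.80, adjusted p = 0.000274 by edgeR). Leaving out 1 oocyte at a time gave changes of -3.75 log2 (without SN-MII oocyte 3) to -2.9 log2. Ears2 (glutamate) fell 6.1-fold and Sars2 (serine) 5.92-fold. Nars2 (asparagine), Tars2 (threonine), Pars2 (proline) and Vars2 (valine) fell between 2.75- and 3.41-fold. The call of Nars2 was the weakest (adjusted p = 0.0392 by edgeR), with GV values spread from 0.506 to 7.66 CPM, and it was lost without, among others, SN GV oocyte 3 (log2 -1.24, adjusted p = 0.164) or NSN GV oocyte 1 (log2 -1.12, adjusted p = 0.2).

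Mars2, the mitochondrial methionyl-tRNA synthetase, was the mitochondrial gene that rose. It had 2.42, 2.84 and 2.04 CPM in SN GV, 7.67, 7.87 and 3.04 CPM in NSN GV, 13, 6.42, 6.84 and 9.68 CPM in SN-MII and 20.8, 9.28 and 9.29 CPM in NSN-MII oocytes. The rise was 2.79-fold (log2 1.48 ± 0.34, edgeR adjusted p = 0.000907), with 2 NSN GV oocytes inside the range of the MII oocytes. Lars2 (leucine), Fars2 and Wars2 had changes of 0.24, 0.19 and 0.24 log2 and were not called, with intervals of -0.10 to 0.58, -0.10 to 0.48 and -0.41 to 0.89. Iars2 had a change of -0.26 log2 and an interval of -1.75 to 1.23.

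The 2 genes for 1 amino acid did not always move alike. Mars fell and Mars2 rose. Per length, Mars was at 24.6 and Mars2 at 0.235 FPKM in GV oocytes, a ratio of medians of 105. In MII oocytes they were at 1.68 and 0.67 FPKM, a ratio of 2.51, with Mars above Mars2 in 5 of 7 libraries. These ratios rest on the lengths used, with 102 counts for each FPKM unit for Mars2 and 14.1 for Mars. In CPM, not scaled by length, Mars2 lay above Mars in every MII library (6.42 to 20.8 against 0.136 to 5.95 CPM). Eprs rose while Ears2, its mitochondrial counterpart for glutamate, fell, and the ratio of their median FPKM went from 9.11 at GV to 157 at MII. Fars2 exceeded Farsa in FPKM in all libraries of both stages, with median levels of 124 against 45 FPKM at GV. This too rests on the lengths used, with 4.74 counts for each FPKM unit for Fars2 and 14.7 for Farsa. In CPM, Fars2 had 69.7 to 105 and Farsa 61.9 to 99.3 at GV, with Farsa the higher in NSN GV oocyte 1 (74.3 against 69.7). At MII, Fars2 had 85.1 to 106 CPM and Farsa 27.7 to 66.7 CPM.

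The 2 subunits of the cytosolic phenylalanyl enzyme, which works as a tetramer of both, parted in the same oocytes. The ratio of Farsb to Farsa FPKM was 4.97, 4.28 and 4.73 in SN GV and 3.68, 3.64 and 4.17 in NSN GV oocytes. It was 14.1, 18, 16 and 16.1 in SN-MII and 17.9, 17 and 11.8 in NSN-MII oocytes. All MII ratios lay above all GV ratios, and this pair was picked after its values were seen, so that no test is given.

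Some synthetase genes share exon sequence with a neighbour, and the deposited counts carry no stated strand. Farsb shared 9.47% of its exon bases with Sgpp2, Fars2 10.7% with Nrn1 and Lyrm4, Iars2 24.2% with Rab3gap2 and a second gene, and Hars 7.97% with Hars2, in each case on the opposite strand. Aars shared 15.1%, mostly with Exosc6 on its own strand. Without strand, reads over the opposite-strand stretches cannot be told apart, and those that Aars shares with Exosc6 could not be told apart by strand at all.

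Both structural classes held genes of either direction. Of class I synthetases, whose catalytic domain is a Rossmann fold, 3 rose and 10 fell among 18 tested. Of class II, built on an antiparallel sheet, 3 rose and 11 fell among 17. Of the 8 genes for synthetases of the multi-synthetase complex, 2 rose (Eprs and Lars) and 5 fell (Rars, Mars, Qars, Dars and Iars), with Kars not called. All 3 scaffold genes of that complex fell: Aimp2 by 3.53, Eef1e1 by 2.18 and Aimp1 by 1.69 on the log2 scale. Over all genes 31.7% were higher and 36.9% lower, and none of these sets was tested against those shares.

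Other genes that handle tRNA or use its charge gave the following counts in the same fit. All 5 cytosolic elongation factor genes fell, with a median of -3.25 log2, among them Eef1a1 (-4.28 log2), which delivers charged tRNA to the ribosome, and Eef2 (-3.25 log2), which moves the ribosome along. Of 7 mitochondrial translation factor genes tested, 3 rose and 3 fell, with Gfm1, a mitochondrial elongation factor, at 1.17 log2 and Tufm, which delivers mitochondrial tRNA, at -2.37 log2. Of the amidotransferase and formyltransferase genes, Gatb (1.14 log2) and Gatc (0.61 log2) rose, Mtfmt, which formylates the initiator made by Mars2, fell by 0.86 on the log2 scale, and Qrsl1 was at -1.57 log2 without a call.

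Of 12 tRNA processing genes 1 rose and 9 fell, led by the RNase P protein gene Pop5 (-4.67 log2), while Trnt1, which adds the CCA end that a synthetase charges, rose by 0.63 log2. Of 11 tRNA modification genes tested 3 rose and 6 fell, and of 13 RNA polymerase III genes 0 rose and 6 fell. Of 5 genes for synthetase-like and editing proteins 2 fell, Aarsd1 (-5.01 log2) and Dtd1 (-1.35 log2). Of 12 tested genes of the amino acid response 3 rose and 6 fell. In that list Atf4, the factor of the element shown above, was at -1.98 log2, and Eif2ak4 (GCN2), the kinase that senses uncharged tRNA, rose by 1.44 log2. These counts stand beside the shares for all genes given above, 31.7% higher and 36.9% lower, and no list was tested against them.

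The element of the amino acid response was found on both sides of the comparison. Of the 5 members with TGATGNAA in the promoter window, Tars rose, Aars and Iars fell, and Gars and Yars were not called. Vars2, with the NRF1 core, fell and Wars2, with the same core, was not called.

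The last 150 bases of 1 GENCODE transcript per gene (GRCm38) were searched for TTTTAT or TTTTAAT, the cytoplasmic polyadenylation element (CPE) that in oocytes marks mRNAs for a change of poly(A) tail, on the transcript strand. It was present in 7 of the 37 members, against 24.7% of 11233 genes tested, with 2 among the 6 genes that rose (Lars and Mars2) and 4 among the 21 that fell (Aars, Farsa, Rars2 and Sars). A window of 30 bases is shown for the gene that rose within the mitochondrial class and for 2 that fell, with the element in capitals.
Mars2, chr1:55248392-55248421 (+): ctggtaagtattTTTTATatatgctataga
Rars2, chr4:34660077-34660106 (+): gataaatatgttTTTTATgcaaatgagttc
Sars, chr3:108424918-108424947 (-): taacagcatgaaTTTTATggttgggggcca
The polyadenylation signal AATAAA or ATTAAA was in the same stretch of 28 of the 37 members, against 81.9% of genes tested, in 6 of 6 that rose and in 14 of 21 that fell. In Farsa the CPE letters TTTTAAT overlap the signal. The transcript ends used by these oocytes were not measured.

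The stage change was also fitted within each type. In SN oocytes 25 of 35 members were called, 5 higher and 20 lower, against 56.3% of all genes, 25.1% higher and 31.2% lower. In NSN oocytes 23 of 35 were called, 3 higher and 20 lower, against 56.3%, with 25.4% higher and 30.8% lower. Eprs was higher in MII oocytes of both types, at 1.12 log2 in SN and 1.21 log2 in NSN, as was Farsb, at 0.71 and 0.84 log2, and Lars, at 0.68 and 0.61 log2. Hars was called in SN oocytes (1.31 log2, edgeR adjusted p = 0.000361) and had a change of 0.40 log2 in NSN oocytes (adjusted p = 0.205). Mars2 had changes of 1.88 log2 in SN (adjusted p = 0.00321 by edgeR) and 1.08 log2 in NSN oocytes (adjusted p = 0.0616). Iars had changes of -0.53 log2 in SN (adjusted p = 0.0839 by edgeR) and -1.30 log2 in NSN oocytes (adjusted p = 0.000797).

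The interaction of type and stage tests whether these changes differ. No member was called among 35 by edgeR, with 2 at an unadjusted p under 0.05. Of all genes, 0.0176% passed the adjusted edgeR test and 5.33% the unadjusted one. DESeq2 called no member either, against 39 of 11375 genes. The 2 members were Vars (interaction -5.46 log2, edgeR adjusted p = 0.761), which is at 0 in all NSN-MII oocytes, and Hars (-0.91 log2, 95% interval -1.67 to -0.15, adjusted p = 0.823). Iars had an interaction of -0.77 log2 (-1.56 to 0.02).

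The comparison of NSN with SN oocytes asks whether the 2 nucleolar types hold different stores. At the GV stage no member was called among 34 tested by edgeR or DESeq2, as for all genes (0% of 10839), with 2 members at an unadjusted p under 0.05 against 1.75% of all genes. The groups did not overlap in 4 of the 34, against 6.03%. Mars2 was 1.38 log2 higher in NSN GV oocytes (95% interval 0.18 to 2.58, edgeR adjusted p = 1), with 7.67, 7.87 and 3.04 CPM against 2.42, 2.84 and 2.04 CPM in SN GV oocytes. NSN GV oocyte 3 lay close to the SN oocytes. Hars was 0.61 log2 higher (0.05 to 1.17, adjusted p = 1 by edgeR), with its 3 NSN GV oocytes within 25.4 to 26.5 CPM and all above the SN GV oocytes. Vars was 1.18 log2 higher (-0.08 to 2.45), at 4.55 to 5.62 CPM against 0.958 to 3.43 CPM.

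The width of the interval at the GV stage varied among the abundant members. For Qars the NSN over SN difference was 0.12 log2 (-0.19 to 0.44) and for Farsb 0.05 log2 (-0.28 to 0.39), while for Gars it was -0.33 log2 (-1.33 to 0.66) and for Lars2 -0.50 log2 (-1.04 to 0.04). The median over the 19 cytosolic genes tested was 0.06 log2, against 0.12 log2 for the 15 mitochondrial genes and 0.01 log2 over all genes. Values below 0 were found for 8 of the 34 and values above 0 for 26.

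At MII no member was called among 31 tested by edgeR, against 0.259% of 10028 genes. DESeq2 called no member either, against 217 of 10028 genes. An unadjusted p under 0.05 was reached by 1 member, against 9.38% of all genes, and 3 of the 31 did not overlap, against 10.2%. Iars was that member, with 267, 280, 293 and 331 CPM in SN-MII and 190, 225 and 95.9 CPM in NSN-MII oocytes. All NSN-MII oocytes lay below all SN-MII oocytes, by 0.77 on the log2 scale (95% interval -1.33 to -0.22, edgeR adjusted p = 0.312). Without NSN-MII oocyte 3, the lowest of the 3, the difference of Iars was -0.48 log2 (adjusted p = 0.117 by edgeR). Wars was at -0.44 log2 (-0.88 to 0.01, edgeR adjusted p = 0.538), and at -0.57 log2 without that oocyte (adjusted p = 0.178 by edgeR).

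Qars was at 0.98 log2 in NSN-MII over SN-MII oocytes (-0.20 to 2.17, edgeR adjusted p = 0.634). Its value turned on NSN-MII oocyte 3, at 12.3 CPM below every SN-MII oocyte, while the other NSN-MII oocytes, at 84.9 and 121 CPM, lay above all of them. Without that oocyte Qars was higher by 1.48 log2 (adjusted p = 0.0217 by edgeR), the 1 member called among 31 tested. In the same fit 233 of 10420 genes were called, against 26 of 10028 with all MII libraries.

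**Figure D5:**
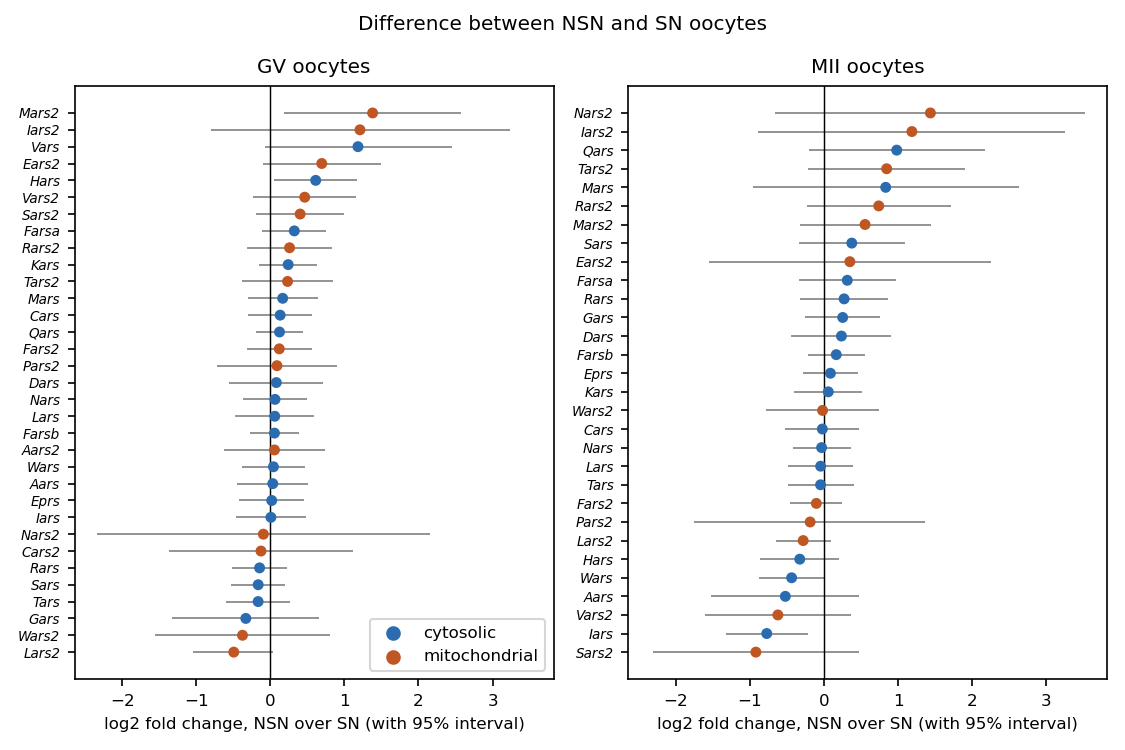
Log2 fold change of NSN over SN oocytes with its 95% interval for 33 synthetase genes at the GV stage (left) and 30 at MII (right), coloured by class. None had an adjusted p under 0.05. The intervals of Mars2 and Hars at GV and of Iars at MII leave out 0 before adjustment.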

How the data were processed

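Single oocytes were profiled by SMART-seq2, which primes on poly(A) tails, with Tn5 fragmentation. No molecular identifiers or strand are stated. Per the submitters' processing notes, Trim Galore 0.4.4, Bowtie2 2.3.5, RSEM 1.2.28 and DESeq2 1.20.0 were used with mm10. The authors deposited RSEM expected counts, 1 table per stage, in which reads that fit several genes are shared out, so that 11 to 16.6% of a library's values were not whole. FPKM, scaled by gene length and library size, were deposited in 1 table for all libraries.

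Counts were rounded. Genes were filtered with filterByExpr, scaled by TMM and tested with edgeR 4.0.16 (quasi-likelihood, Benjamini-Hochberg over all genes) in R 4.3.3. Calls were made below 0.05 after adjustment. MII over GV (the mean of both types), the change within each type and the interaction came from 1 fit of 13 libraries. NSN and SN oocytes were compared in fits of 6 GV and of 7 MII libraries. Intervals of 95% used the fit's standard error and the t quantile of its degrees of freedom. CPM values use TMM-scaled library sizes. Within each group, no libraries were copies of each other, and libraries of different groups were not compared for this. DESeq2 1.42.0, limma 3.58.1 on log2(FPKM + 1) and on log2(FPKM + 0.1), other scalings, no filter, leaving out each oocyte and a replicate block were alternatives. The common biological coefficient of variation was 0.364, which at these depths exceeds the counting error of all but low genes. Counting error alone sets the floors of 3 counts per library. The scripts were tested on simulated data.

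Genes were named by size of change within each class and direction, by the smallest p for type, and Gars and Kars for serving both compartments. The rule for members uses symbols alone, but the members, as a gene family to describe, and the gene lists were chosen with earlier results of these data known. Promoters are from RefSeq (27 of 37 matched, 1 by the symbol Mars1) and transcripts from GENCODE M21. Protein sequences were not used here. The values of 1 mitochondrial member are not reported here; it is counted in the totals and sums but not drawn singly.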

Additional observations from a re-analysis of the deposited data

Results flagged for a closer look

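Within SN-MII oocytes, the group of 4, 2 of 36 synthetase genes had 1 oocyte set apart from the other 3 by more than a Dixon test at 95% allows; chance alone sets apart about 1 in 20. Nars stood at 86.1 CPM in SN-MII oocyte 3, against 108 to 109 CPM in the others. Vars stood at 0.92 CPM in SN-MII oocyte 3, against 0 to 0.136 CPM.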

How the results depend on the processing

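Of the 27 members called between MII and GV oocytes, 24 kept their call and direction in all of the alternatives that gave them a value, and Lars, Tars and Nars2 lost it in at least 1. Tars lost it in 14 settings and Nars2 in 11. Fars2 (0.41 log2) was called with limma on FPKM, and Wars with limma on FPKM (-0.46 log2) and with total count scaling (-0.38 log2). No called change turned its direction. Total count scaling left 3 cytosolic genes higher rather than 5, and moved the median of all genes from -0.10 to -0.39 log2 and the share of calls that were higher from 46.2% to 36.7%. Limma on log2(FPKM + 1) without a filter gave 2 mitochondrial genes higher rather than 1. Under a rule of 1.5-fold or more and p under 0.05 before adjustment, 2 members passed for the interaction, 2 for NSN over SN at GV and 1 at MII, against 0 in each case. Over all genes, 5.33%, 1.75% and 9.38% had an unadjusted p under 0.05 in these comparisons, with no rule on fold. Leaving out 1 oocyte gave 0 to 1 members called for NSN over SN at MII, the 1 being Qars without NSN-MII oocyte 3. That fit called 233 of 10420 genes. The cause of these shifts was not tested.

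Replicate numbers were shared by the groups, and the deviations of same-numbered oocytes correlated between -0.458 and 0.202. Differently numbered oocytes were not set beside them, so these values cannot show whether the numbers mark pairs. The main fits treated the oocytes as unpaired. A fit with a replicate block called 26 members between MII and GV, 21 within SN, 22 within NSN and 0 for type at either stage or the interaction. Of 11375 genes in all, it called 7452 between MII and GV, 5623 within SN, 6151 within NSN and 2 for the interaction. For type it called 0 of 10839 genes at GV and 2 of 10028 at MII. The low genes (Hars2, Yars2, Yars, Vars) are limited by depth.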
